A study of Bos taurus with 36 samples.

Results

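The genes of the mitochondrial genome were taken as all rows of the count table whose Entrez gene is placed on the bovine mitochondrial chromosome in the RefSeq gene table, and 37 of 35092 rows met this rule. They comprised 13 protein genes, 2 rRNA genes and 22 tRNA genes. The protein genes were ND1, ND2, ND3, ND4L, ND4, ND5 and ND6 of respiratory complex I, CYTB of complex III, COX1, COX2 and COX3 of complex IV, and ATP6 and ATP8 of the ATP synthase (complex V), with Entrez identifiers running from 3283877 (ND1) to 3283889 (CYTB) in the order of the genes along the chromosome. The rRNA and tRNA rows carried only locus tags, so they are called here by those tags: KEH36_r02 and KEH36_r01 for the rRNAs and KEH36_t01 to KEH36_t22 for the tRNAs. In the reference order KEH36_r02 precedes KEH36_r01, which lies beside ND1.

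RNA was sequenced from the heart, gonads and liver of 10 male fetuses collected from heifers on gestational Day 42, and from blood drawn on the same day from these heifers. Of these fetuses, 5 came from synchronous transfers, in which a Day 7 embryo was placed in a recipient at the same day of her cycle (ET_D7), and 5 came from asynchronous transfers into recipients that had reached Day 9 (ET_D9). Fetuses are numbered by weight from 1 (1.253 g) to 10 (1.69 g), and the groups did not overlap in weight, since ET_D7 fetuses weighed up to 1.37 g and ET_D9 fetuses at least 1.396 g. Weight and transfer group therefore cannot be told apart in these samples. All heifers had their cycles synchronised before transfer, every embryo was 7 days old at transfer, and the organs of a fetus and the blood of its mother share a number. The fetuses were picked for divergent weight, so they are not a random draw from either group, and breed is not given in the sources used here.

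The mitochondrial genome is a small circular DNA present in many copies per cell. It encodes core subunits of the respiratory chain and the ATP synthase, and the rRNAs and tRNAs that translate them, while all other mitochondrial proteins come from nuclear genes. Both strands are transcribed as long precursors that are cut at the tRNAs, after which most mRNAs and both rRNAs receive short poly(A) tails. Most of these genes are read from one strand, ND6 is read from the other, ATP8 overlaps ATP6 and ND4L overlaps ND4 on shared mRNAs, and ND5 and ND6 run towards each other. Heart muscle is known as a tissue rich in mitochondria.

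There were 9 heart libraries (none of fetus 7), 9 gonad libraries (none of fetus 2), 8 liver libraries (none of fetuses 6 and 7) and 10 maternal blood libraries, with total counts between 18231089 and 40812354. The gonad libraries of fetuses 6 and 8 were multiples of each other: the ratio of fetus 8 to fetus 6 was 1.27 at the median gene, and 90.8% of 9227 genes with at least 500 counts lay within 1% of it. The mitochondrial protein and rRNA genes of this pair had ratios of 1.273 to 1.275. At the median gene, the liver libraries of fetuses 1 and 2 differed by less than the sampling noise of their counts. Their median absolute z was 0.337 over 16065 genes, where noise alone gives 0.674 for independent counts. They were not close multiples of each other, since 30.5% of 5461 genes with at least 500 counts lay within 1% of the median ratio of 1.05. The mitochondrial protein and rRNA genes of this liver pair had ratios of 1.037 to 1.068, a wider span than in the gonad pair. Every other pair of libraries of the same tissue had a median absolute z of at least 1.18. Each of these 2 pairs was averaged and counted as 1 sample, which left 9 heart, 8 gonad, 7 liver and 10 blood samples.

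The organ labels were checked against marker genes, as CPM of nuclear counts, that is counts scaled to the same nuclear total in each sample. In the hearts all 8 heart markers averaged at least 1 CPM and summed to 46755 to 59056, and in the livers all 8 liver markers did so and summed to 31392 to 59838. In the gonads the 6 Sertoli markers summed to 9.47 to 24.8 against 16.2 to 25.3 in the hearts, and none of 5 germ cell markers averaged 1 CPM. In the same gonads 6 kidney markers summed to 566 to 753 against 12.2 to 20.3 in the hearts. The livers held 118 to 299, most of it from CDH16, a cadherin, which averaged 166 CPM there and 6.87 in the gonads. The part of these cells in the gonad values below was not tested, and in RNA from whole organs a lower share of mitochondrial counts from fewer cells of a type and from less RNA per cell cannot be told apart. Each sample of an organ is labelled as a different fetus, which is the replicate throughout.

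The share of all counts that fell on the mitochondrial genome was lowest in maternal blood and highest in the heart. It averaged 35.4% ± 12.6 in the heart (SD, n = 9), 26.5% ± 8.12 in the liver (n = 7), 4.32% ± 1.28 in the gonads (n = 8) and 2.67% ± 0.296 in blood (n = 10). Heart and liver ranges overlapped, with 5 of the 9 hearts above every liver (at most 36.8%), and every heart and liver sample lay above every gonad and blood sample. COX1, the catalytic core of complex IV, held more counts than any other gene of the table in the heart, gonads and liver on average. Of the 20 genes with the most counts, 10 were mitochondrial in the heart, 9 in the liver, 6 in the gonads and 3 in blood, the blood libraries having been made with another kit.

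**Figure D1:**
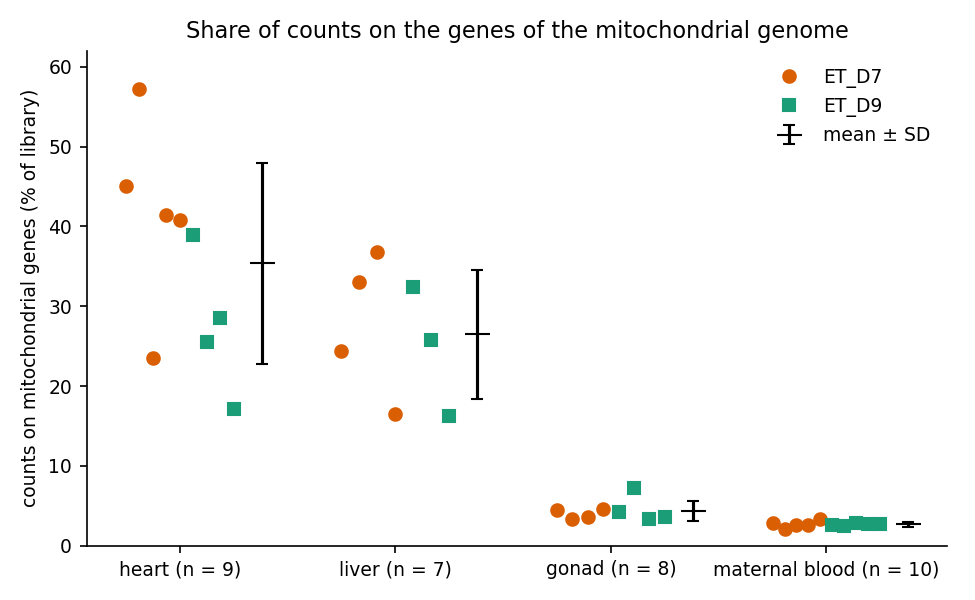
Share of all counts on the 37 mitochondrial genes (percent of the library, vertical axis) in each sample of the heart, liver, gonad and maternal blood, ordered by fetal weight within a tissue, with circles for ET_D7, squares for ET_D9 and the mean ± SD beside them. Heart samples lie between 17.1% and 57.3% and gonad samples between 3.31% and 7.23%, so that no sample of one reaches the other.

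Not all of the 37 rows held counts. The 13 protein genes and both rRNA genes were counted in every library, the smallest value in any sample being 1000 counts of ND4L in the gonads of fetus 1. Of the 22 tRNAs, 9 were at 0 in all 36 libraries and 13 had a count in at least 1 library, and 4 reached 10 counts in any of them. KEH36_t22, the last gene of the reference order, stood far above the other tRNAs. It held at least 1385 counts in every sample and took 0.151% ± 0.0765 of counts in the heart, 0.159% ± 0.0571 in the liver, 0.0087% ± 0.0020 in the gonads and 0.0369% ± 0.0066 in blood. KEH36_t12, next after COX1, held 19 counts or more in every heart and liver sample and at least 1 in every gonad sample. Transfer RNAs are short and carry no poly(A) tail, and the organ libraries were made from polyadenylated RNA. Both rRNAs together took 0.711 to 4.63% of the mitochondrial counts across the organ libraries, lower in each heart (0.711 to 0.875%) than in any gonad (2.08 to 4.63%).

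In all, 17 of the 37 genes had at least 10 counts in at least 8 of the 24 organ samples and were tested: the 13 protein genes, both rRNAs, KEH36_t12 and KEH36_t22. The other 20 genes, all tRNAs, were too low to test.

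COX1 had the highest share of the mitochondrial genes in the heart, liver and gonads. It took between 7.6% and 22.1% of all counts in the heart (median 15.1%), between 6.17% and 16.4% in the liver (median 10.1%), between 0.725% and 1.60% in the gonads (median 0.867%) and between 0.532% and 0.893% in blood (median 0.669%). The hearts of fetuses 10 and 2 were its lowest and highest, and the heart and liver ranges overlapped. COX3 ranged from 1.83% to 7.05% in the heart (median 4.05%) and from 1.61% to 3.77% in the liver (median 2.53%), against 0.459% to 1.12% in the gonads. COX2, which holds the copper centre that accepts electrons from cytochrome c, ranged from 1.16% to 4.08% in the heart (median 2.73%) and from 0.723% to 1.71% in the liver (median 1.31%). In the gonads COX2 lay between 0.169% and 0.388% (median 0.218%), below every heart and liver sample.

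ATP6, the membrane subunit that forms the proton path of the ATP synthase, differed from the cytochrome oxidase genes in the order of the organs. It averaged 5.05% ± 1.52 in the liver (2.92 to 6.77%) and 3.92% ± 1.31 in the heart (1.77 to 6.04%), so the liver mean was the higher one although the ranges overlapped. Its neighbour ATP8, a small subunit of the same enzyme, averaged 0.224% ± 0.0740 in the liver and 0.167% ± 0.0482 in the heart. In the gonads ATP6 took 0.516 to 1.26% and ATP8 0.0152 to 0.0376%. CYTB, the cytochrome b of complex III, had heart values of 1.55% to 6.15% with a median of 3.29%. Its liver values were 1.5% to 3.48% (median 2.69%) and its gonad values 0.503% to 1.17% (median 0.628%), so the gonads again lay below both.

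Of the complex I genes, ND1 and ND4 took the most counts in the organs. ND1, which lies beside the rRNA genes, had medians of 2.13% in hearts (0.872 to 3.27%), 1.37% in livers (0.769 to 1.97%) and 0.258% in gonads (0.191 to 0.466%). ND4 had medians of 1.97% in hearts (0.793 to 2.80%), 0.806% in livers (0.427 to 0.990%) and 0.220% in the gonads (0.183 to 0.419%). The liver values of ND4 thus reached only the lower end of the heart range. ND6, the only protein gene of the other strand, had medians of 0.264% in hearts (0.120 to 0.475%), 0.111% in livers (0.0529 to 0.145%) and 0.0155% in the gonads (0.0091 to 0.0249%). ND4L had the lowest share of the protein genes in every tissue, at 0.121% ± 0.0432 in the heart and 0.0081% ± 0.0023 in the gonads.

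Within an organ, single samples held many of the extreme values. In the heart, fetus 10 had the lowest share for all 15 protein and rRNA genes and fetus 2 the highest for 14 of them, ATP8 being highest in fetus 6. In the gonads, fetus 7 was highest for 12 of the 15, and in the liver fetus 5 was lowest for 12. The genes did not all move alike, since the gonads of fetus 1 were highest for both rRNAs (0.0619% and 0.146%) and lowest for COX1, ATP8 and ND4L. The highest heart sample exceeded the lowest by between 2.91-fold (COX1) and 4.73-fold (KEH36_r01), and the corresponding folds were 1.94 to 3.06 in the gonads, 2.13 to 3.40 in the liver and 1.24 to 2.94 in blood. These genes share the library and, as parts of long precursors, the transcript of origin, and are not independent of one another.

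The first comparison asked which mitochondrial genes differed between organs. With the 24 organ samples fitted together, 16 genes were higher in the heart than in the gonads. The same 16 were lower in the gonads than in the liver. These were all tested genes except KEH36_t12. Heart and gonads differed by between 2.41 (KEH36_r01) and 5.38 (KEH36_t22) on the log2 scale. KEH36_t12 was called in the same directions. It passed the filter only with its heart and liver counts and was too low to test within the gonads. It is thus no separate support, and the values for 17 genes below include it. ND6 differed most of the protein genes between heart and gonads, at 39.8-fold, followed by COX1 at 35.2-fold and ND4L at 34.9-fold, and ATP6 least, at 10.8-fold. Over all 18006 genes tested, 60.4% were called between heart and gonads (30.2% higher in the heart) and 73.5% between gonads and liver (36.5% lower in the gonads), and the median log2 difference of the 17 mitochondrial genes was 4.11 and -3.48 where that of all genes was -0.06 and 0.02. Calls were made with edgeR's quasi-likelihood test at a Benjamini-Hochberg adjusted p under 0.05. For the 17 genes the adjusted p lay between 2.34e-11 (COX1) and 5.23e-06 (KEH36_r01) for heart against gonads, and between 2.6e-11 (ATP8) and 3.04e-06 (KEH36_r01) for gonads against liver. Scaling to library totals in place of TMM factors moved the median of all genes to -1.11 for heart against gonads and to 1.11 for gonads against liver. The member medians then became 2.89 and -2.34 with all 17 calls kept in each comparison, while the share of called genes that were higher went from 50% to 13.5% for heart against gonads and from 50.3% to 76.3% for gonads against liver.

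Between heart and liver the genes split. ND2, ND3, ND4L, ND4, ND5 and ND6 of complex I and COX2 of complex IV were higher in the heart, which is 7 of the 17, and none was lower, while 68.2% of all genes were called, 34.2% higher and 34.0% lower. ND4L rose by 1.64 ± 0.36 on the log2 scale (SE), or 3.12-fold, with an adjusted p of 0.000244 by edgeR's quasi-likelihood test with Benjamini-Hochberg adjustment. The same test gave 1.60 ± 0.37 for ND6 (adjusted p = 0.000514), 1.42 ± 0.34 for ND5 (adjusted p = 0.000658) and 1.29 ± 0.33 for ND4 (adjusted p = 0.00124). ND3 and ND2 rose by 1.27 ± 0.37 and 1.19 ± 0.32, and COX2 by 1.07 ± 0.33 (adjusted p = 0.00621 for COX2 in edgeR's test).

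The other complex IV genes, the complex III gene and ND1 did not pass this test. COX3 had a log2 difference of 0.75 ± 0.35 with an adjusted p of 0.0592 (edgeR's quasi-likelihood test), and ND1 one of 0.62 ± 0.34. COX3 passed without fetus 3 (adjusted p = 0.0449), and COX3 and ND1 did so without fetus 8 (0.0418 and 0.0499), with edgeR's test in each case. COX3 also passed edgeR's test with library totals (adjusted p = 0.0296), without the filter on low counts (0.0472) and with all libraries counted separately (0.0335). COX1 (0.46 ± 0.33) and CYTB (0.54 ± 0.35) showed differences near the spread between samples. For ATP8 and ATP6 the estimates were -0.39 ± 0.28 and -0.28 ± 0.32, for KEH36_r02 and KEH36_r01 -0.29 ± 0.35 and -0.10 ± 0.36, and for KEH36_t12 and KEH36_t22 -0.09 ± 0.47 and 0.05 ± 0.37, none past the threshold. The median over the 17 genes was 0.62, and that of all genes 0.00. In 1 liver sample, that of fetus 3, the heart markers summed to 2157 CPM, while the other livers held 10.2 to 735, and without fetus 3 the test called 8 genes. ACTC1, the cardiac actin, carried that sum with 2046 CPM, while the liver values of MYH7 reached at most 60.9, of TNNT2 37.3 and of MYL7 12.3 CPM, and NPPA and NKX2-5 were at 0 in every liver.

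**Figure D2:**
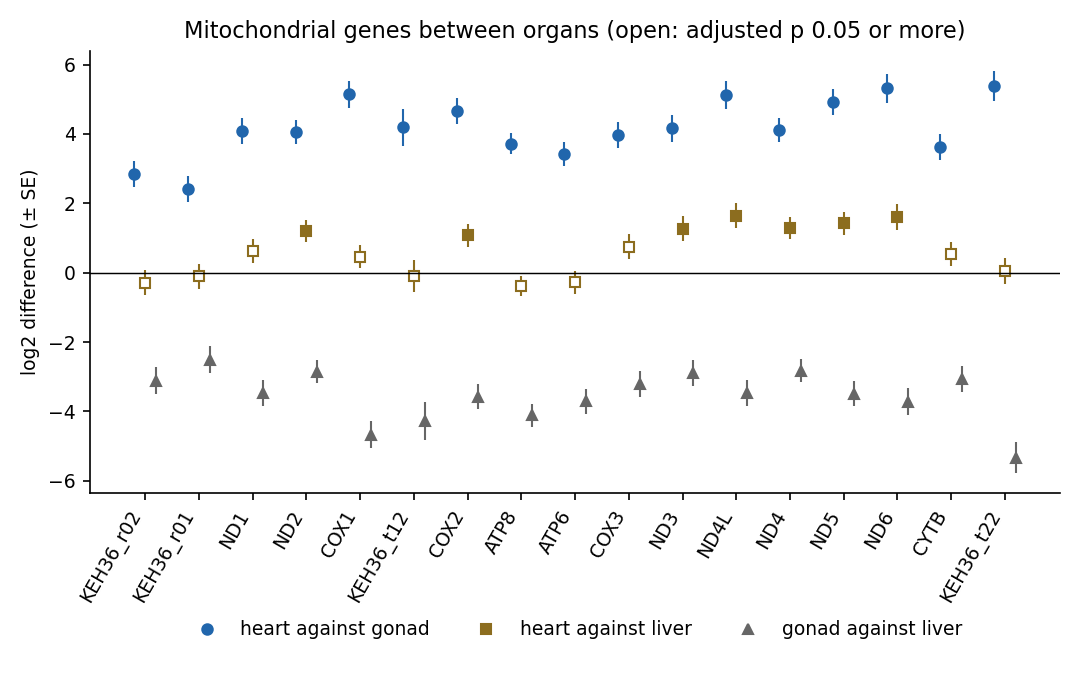
Log2 difference (± SE, vertical axis) of the 17 tested mitochondrial genes in chromosome order between heart and gonads (circles), heart and liver (squares) and gonads and liver (triangles), from 24 organ samples, with open symbols at an adjusted p of 0.05 or more. All circles lie at 2.41 or above, all triangles at -2.51 or below, and the filled squares are ND2, COX2, ND3, ND4L, ND4, ND5 and ND6.

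Shares of the counts on the 13 protein genes alone show the make-up of the mitochondrial mRNA apart from its amount. Complex IV genes took 59.2% ± 2.90 of these counts in the heart, 56.4% ± 3.17 in the liver, 42.6% ± 3.21 in the gonads and 39.3% ± 1.61 in blood. Complex I genes took 19.1% ± 2.0 in the heart, 13.2% ± 1.26 in the liver, 20.3% ± 1.32 in the gonads and 22.3% ± 0.866 in blood. The liver was lowest in complex I, with no sample above 14.4% where no sample of the other tissues lay below 16.4%. The 2 ATP synthase genes took 11.8% ± 1.62 in the heart, 20.4% ± 2.05 in the liver, 21.0% ± 4.15 in the gonads and 27.8% ± 2.78 in blood, and the heart was the lowest here. CYTB took 16.2% ± 1.09 in the gonads against 9.89% ± 1.03 in the heart, 10.1% ± 0.715 in the liver and 10.6% ± 0.523 in blood.

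COX1 alone accounted for 40.5% ± 3.02 of the protein-gene counts in the heart and 41.4% ± 3.33 in the liver, but for 22.4% ± 2.71 in the gonads. ATP6 accounted for 11.3% ± 1.52 in the heart, 19.5% ± 1.97 in the liver and 20.2% ± 4.10 in the gonads. The gonad samples were the most uneven for ATP6, at 14.7 to 26.4%, and the heart samples of ATP6, at 9.77 to 14.0%, lay below all of them. ND5, a subunit of complex I, accounted for 1.32% ± 0.133 in the heart, 0.696% ± 0.102 in the liver and 0.847% ± 0.137 in the gonads, against 4.71% ± 0.361 in blood.

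**Figure D3:**
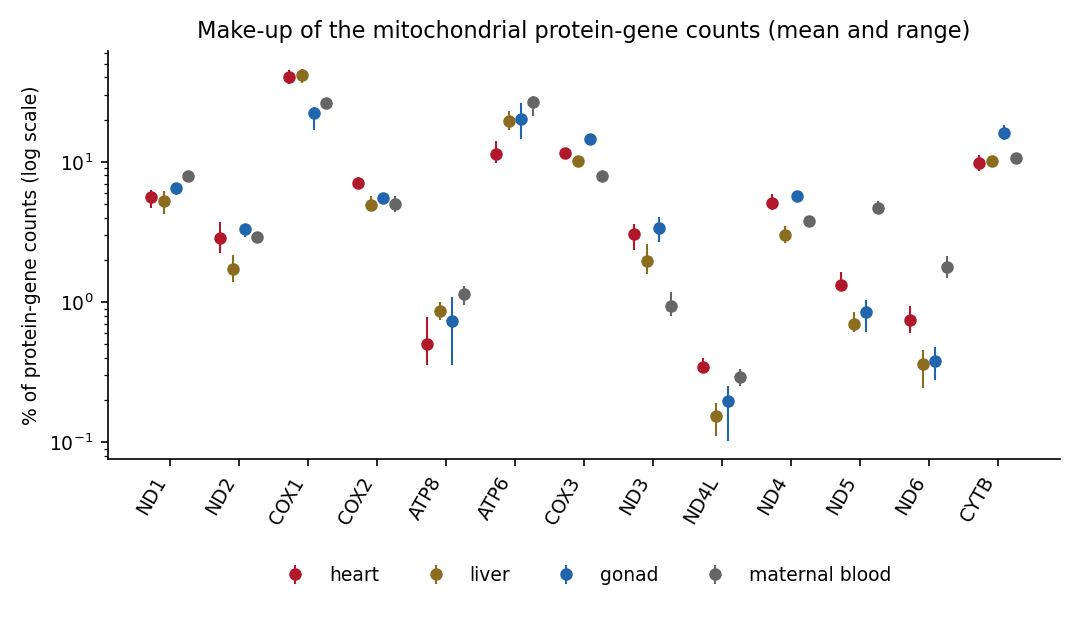
Percent of the counts on the 13 mitochondrial protein genes (log scale, vertical axis) for each gene in chromosome order, with the mean as a point and the range over the samples as a bar, for heart (n = 9), liver (n = 7), gonad (n = 8) and maternal blood (n = 10). COX1 stands at 40.5% in the heart and 22.4% in the gonads, and ND5 at 4.71% in blood and 1.32% or less in the organs.

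A ratio of the counts of 2 genes within a library does not depend on how libraries are scaled. The 12 ratios examined were compared between organs within fetus, over 7 independent fetus pairs for each pair of organs, by an exact two-sided sign-flip permutation test, whose smallest possible p is 0.0156. Of the 36 tests, 27 passed at a Benjamini-Hochberg adjusted p under 0.05: 7 between heart and liver, 9 between heart and gonads and 11 between gonads and liver. In the same order, edgeR called 68.2%, 60.4% and 73.5% of all 18006 single genes. Ratios of other genes were not tested, so 27 of 36 is not shown to be particular to the mitochondrial genome. For a ratio that moved the same way in 7 of 7 pairs the adjusted p was 0.0225 in this permutation test, the smallest value reached.

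Ratios among the last genes of the reference order (ND4, ND5, ND6 and CYTB) separated the organs. The log2 ratio of ND6 to CYTB was -3.73 ± 0.23 in the heart, -4.83 ± 0.29 in the liver and -5.43 ± 0.21 in the gonads, so ND6 counts were 0.0751 of CYTB counts in the heart and 0.0233 in the gonads. Within fetuses the heart exceeded the gonads by 1.66 ± 0.10 (SD, 7 of 7 pairs) and the liver by 1.10 ± 0.34 (7 of 7 pairs). The ratio of CYTB to ND5 ran the other way, with geometric means of 7.47 in the heart, 14.6 in the liver and 19.3 in the gonads. Its heart values (5.69 to 9.05) did not overlap those of the liver (12.4 to 16.7) or the gonads (15.5 to 29.8). The ratio of ND5 to ND4 was 0.259 in the heart, 0.230 in the liver and 0.147 in the gonads. It differed between gonads and each other organ in 7 of 7 pairs, and between heart and liver by 0.20 ± 0.29 on the log2 scale (exact permutation p = 0.125). Whether reads of ND5 and ND6 were kept apart by strand is not given in the sources used here, so a shift of counts between this overlapping pair cannot be told apart from a shift of transcripts.

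Neighbouring genes differed as well. COX2 stood to COX1 as 0.176 in the heart, 0.118 in the liver and 0.249 in the gonads, and the ranges of the 3 organs did not overlap (0.149 to 0.217, 0.0975 to 0.146 and 0.227 to 0.336). ND2 stood to ND1 as 0.505 in the heart and 0.508 in the gonads, which differed by -0.03 ± 0.10 within fetuses (exact permutation p = 0.422), and as 0.330 in the liver, lower in 7 of 7 pairs than in either. COX3 stood to ATP6 as 1.03 in the heart and 0.519 in the liver, and the liver was lower in 7 of 7 pairs. The ratio of KEH36_r01 to KEH36_r02 was 2.44 in the gonads, above the heart (1.74) and the liver (1.58), and heart and liver did not pass the test (log2 difference 0.12 ± 0.22, exact permutation p = 0.219).

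For genes that share an mRNA the picture varied. ATP8 stood to ATP6 as 0.0435 in the heart, 0.0440 in the liver and 0.0342 in the gonads, and no pair of organs passed the exact permutation test (adjusted p from 0.358 to 0.969). The gonad values of this ratio spread from 0.0145 to 0.0554, which is wider than the differences between organs. ND4L stood to ND4 as 0.0675 in the heart, 0.0508 in the liver and 0.0337 in the gonads, and all 3 pairs of organs passed, with the heart higher in 7 of 7 pairs in both of its comparisons. COX1 to ND1 was 7.24 in the heart and 7.94 in the liver, not past the test (p = 0.188, exact permutation), but 3.44 in the gonads. CYTB to ND1 was highest in the gonads (2.49), where it exceeded the liver (1.94) and the heart (1.76) in 7 of 7 pairs each. ND1 to KEH36_r01 was 11.1 in the heart, above the liver (6.47) and the gonads (3.42) in 7 of 7 pairs each.

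**Figure D4:**
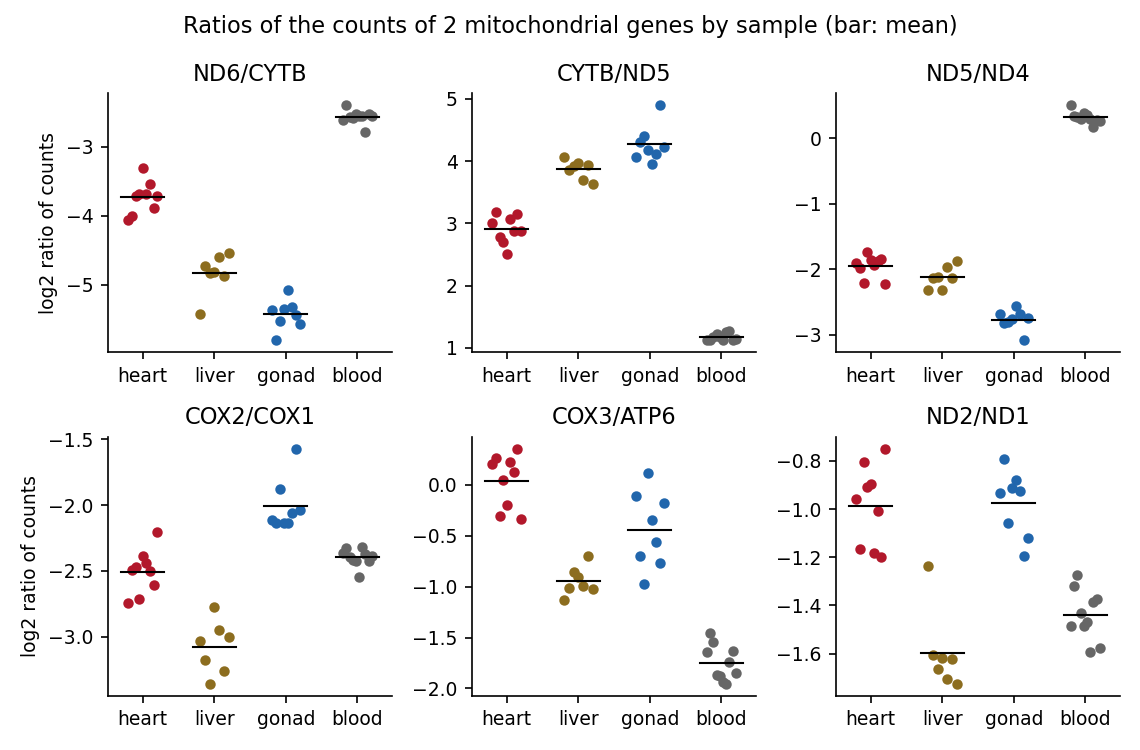
Log2 ratio of the counts of 2 mitochondrial genes (vertical axes) in each sample of heart (9), liver (7), gonad (8) and maternal blood (10) for 6 of the 12 ratios, with the mean as a bar. ND6 to CYTB falls from a mean of -3.73 in the heart to -5.43 in the gonads, and ND5 to ND4 in blood lies at 0.32, above every organ sample.

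Maternal blood was prepared with another kit and is given beside the organs without a test. Its ratio of ND5 to ND4 was 1.25 (1.13 to 1.42) where no organ sample exceeded 0.301, and its ratio of ND6 to CYTB was 0.168 (0.144 to 0.189) where no organ sample exceeded 0.1005. CYTB to ND5 was 2.25 (2.17 to 2.40) in blood, with all 10 samples in that narrow span. COX3 to ATP6 was 0.298 (0.258 to 0.364), below each heart, liver and gonad sample. The kit and the tissue cannot be told apart in these values. Leukocyte markers summed to 5322 to 5747 CPM in blood, and heart markers reached 3641 CPM in the blood numbered 2 and 1151 in that numbered 5 against at most 18.2 in the other 8. MYH7, a slow myosin heavy chain that skeletal muscle also makes, carried these sums, with up to 3616 CPM. MYH6, another of the heart markers, reached 21.98 CPM in blood. TNNT2, TNNI3, ACTC1, NPPA and MYL7 stayed at or under 2.40 CPM and NKX2-5 at 0 in all 10 samples. The blood numbered 2 had the lowest share of counts for 13 of the 15 protein and rRNA genes and the blood numbered 5 the highest for 11.

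**Figure D5:**
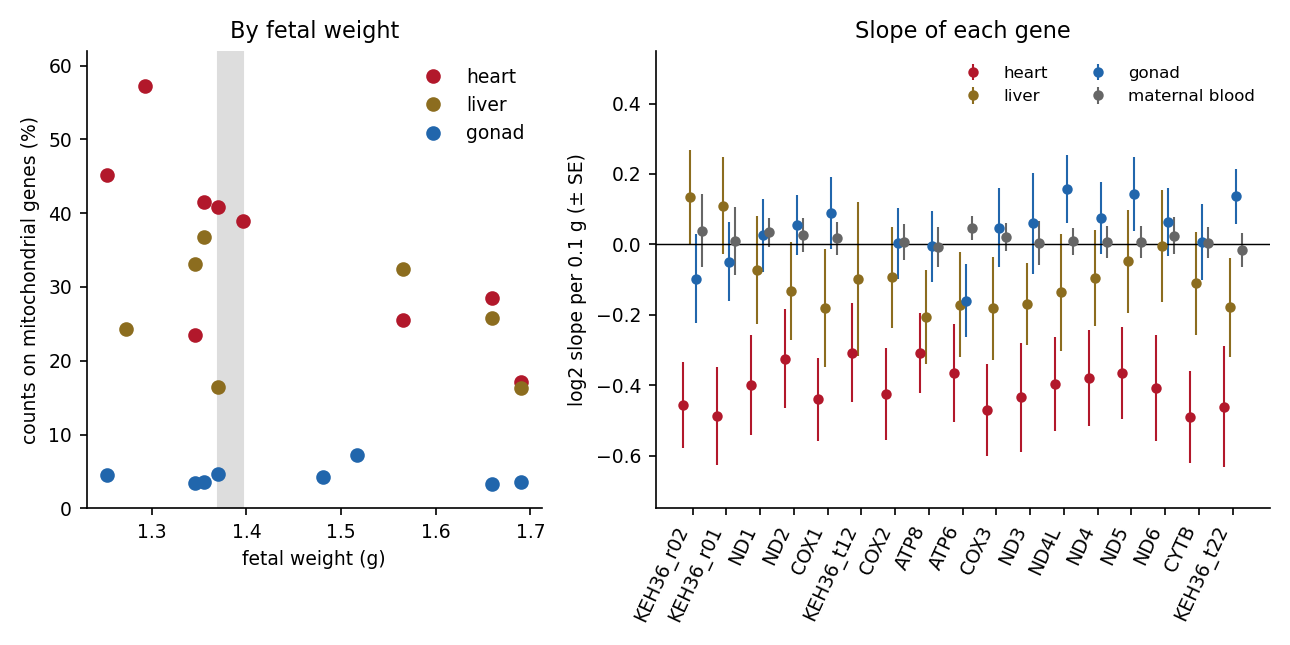
Left, share of all counts on mitochondrial genes (percent) against fetal weight (g) in heart, liver and gonad samples, with the gap between the ET_D7 and ET_D9 weights shaded and averaged pairs at their mean weight. Right, log2 slope per 0.1 g (± SE) of each tested mitochondrial gene in heart, liver, gonad and maternal blood, where all 17 heart slopes lie between -0.49 and -0.31.

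The second comparison asked whether the mitochondrial genes changed with fetal weight. In the heart the estimates pointed down for every gene, but none passed the adjusted test. CYTB took 4.98, 6.15, 2.34, 4.004 and 4.54% of counts in the ET_D7 hearts (fetuses 1 to 5) and 3.29, 2.22, 2.63 and 1.55% in the ET_D9 hearts (fetuses 6, 8, 9 and 10). COX1 took 18.8, 22.1, 10.4, 16.7 and 16.2% in the ET_D7 hearts and 15.1, 9.08, 10.5 and 7.6% in the ET_D9 hearts. The heart of fetus 3 was the low one of its group for both genes, so the groups overlapped.

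The slope of CYTB was -0.49 ± 0.13 on the log2 scale per 0.1 g (SE, adjusted p = 0.0539), that of COX1 -0.44 ± 0.12 (adjusted p = 0.0542) and that of KEH36_r02 -0.46 ± 0.12 (adjusted p = 0.054), all by edgeR's quasi-likelihood test with Benjamini-Hochberg adjustment. All 17 slopes were negative, from -0.49 (CYTB) to -0.31 (KEH36_t12), with a median of -0.41 where that of all genes was -0.01. None of the 17 was called, against 5.5% of the 16250 genes tested in the heart, and 16 of the 17 had an unadjusted p under 0.05, against 28.8% of all genes. DESeq2 called 15 of the 17 and 3066 of all genes. Without fetus 3 edgeR called all 17 (median slope -0.46) and 3863 of all genes, and without fetus 9 it called 2 and 1480 of all genes. Without the heaviest heart, that of fetus 10, 5 of 17 kept an unadjusted p under 0.05 and none was called. With the transfer group as a covariate the median slope was -0.49, and 1 gene had an unadjusted p under 0.05. Scaled to library totals, the median slope was -0.25 where that of all genes was 0.12.

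Other measures of the heart samples were set beside these values. The hearts of fetuses 10 and 3, which had the 2 lowest mitochondrial shares (17.1% and 23.5%), also had the 2 lowest sums of heart markers, 46755 and 49988 CPM of nuclear counts, against 53622 to 59056 in the other 7. Erythroid markers summed to 1945 CPM in fetus 3 and to 800 in fetus 10, inside the range of 548 to 2109 of the other hearts. Total counts were 34441324 in fetus 3 and 29394494 in fetus 10, inside the range of 20930367 to 35857434 of the other hearts. The part of cell makeup in the trend with weight was not tested. With a spline of weight in place of a line, no gene of the 16250 was called in the heart by edgeR (0.0%), 1 of the 17 mitochondrial genes had an unadjusted p under 0.05 against 7.62% of all genes, and DESeq2 called 535 genes and none of the 17.

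Between the transfer groups, the log2 difference of ET_D9 against ET_D7 hearts ran from -1.27 (CYTB) to -0.36 (ATP8) with a median of -0.95, against -0.06 over all genes. None of the 17 was called by edgeR (0.0431% of all genes were), 5 had an unadjusted p under 0.05 (24.1% of all genes), and DESeq2 called 3. Without fetus 3, edgeR called 6. The hearts carried 23.5 to 57.3% mitochondrial counts in ET_D7 (median 41.5%, n = 5) and 17.1 to 39.0% in ET_D9 (median 27.0%, n = 4).

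In the gonads, liver and blood no linear slope of a mitochondrial gene was called. The gonad slopes ran from -0.16 (ATP6) to 0.16 (ND4L) over 16 genes tested, the liver slopes from -0.21 (ATP8) to 0.13 (KEH36_r02) over 17, and the blood slopes from -0.02 (KEH36_t22) to 0.05 (ATP6) over 16. None of them had an unadjusted p under 0.05, and DESeq2 called none. Over all genes, edgeR's linear test called 0.0% in the gonads (5.71% unadjusted), 1.01% in the liver (12.8% unadjusted) and 0.00614% in blood (9.33% unadjusted). A spline of weight called 1 of the 16 genes in the gonads, ND5, with an adjusted p of 0.0465 by edgeR's quasi-likelihood test, against 3.1% of all genes, and 14 of 16 had an unadjusted p under 0.05 against 22.7% of all genes. In the gonads ND5 took 0.0260, 0.0259, 0.0290, 0.0337, 0.0400, 0.0626, 0.0336 and 0.0321% of counts in order of weight, with fetus 7 the highest. Without fetus 1, 3, 4 or 6 none of the 16 genes was called, and 3, 12 and 5 of them were called without fetus 5, 8 and 7. Fetuses 6 and 8 form the averaged gonad pair, and leaving out either kept the other library, a multiple of it. These 2 fits thus differ in the weight given to the same profile. DESeq2 called 11 of the 16 and 1812 of all 17670 genes. Splines called none of the mitochondrial genes in the liver (1.68% of all genes called) or in blood (0.141%), and edgeR called none of them between transfer groups in the gonads (0.0113% of all genes), liver (2.35%) or blood (0.0%), nor did DESeq2. In the gonads 3 of the 16 had an unadjusted p under 0.05 between transfer groups, against 13.1% of all genes.

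The slopes of heart and liver were then compared directly. The heart slope was the lower one for all 17 genes, by 0.14 (ATP8) to 0.64 (KEH36_r01) on the log2 scale per 0.1 g, but none of the differences was called by edgeR's quasi-likelihood test (lowest adjusted p = 0.0545, KEH36_r02) against 7.4% of all 18006 genes. Unadjusted, 3 had a p under 0.05, against 21.2% of all genes. Between heart and gonads none was called either (0.0167% of all genes), with 11 of 17 at an unadjusted p under 0.05 against 6.33%, and between gonads and liver none (4.88% of all genes), with 1 of 17 against 15.5% unadjusted. Leaving out fetus 3 called 2 of the 17 in the comparison of heart and liver slopes, with 1539 of all genes. Leaving out fetus 4 or 7 called 1, with 1323 and 1394 of all genes.

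Nuclear genes that serve the mitochondrial genome were taken from 5 lists. Of 12 genes that mark mitochondrial content, 11 were higher in the heart than in the gonads and 7 were higher than in the liver, none being lower in either, against 30.2% and 34.2% of all genes called higher. CS, the citrate synthase, reached 387 ± 66.8 CPM of nuclear counts in the heart, against 85.2 ± 14.1 in gonads and 38.4 ± 7.34 in liver, and the 3 ranges did not overlap. SLC25A4, the ADP/ATP carrier of muscle, reached 880 ± 162 CPM in the heart, against 31.8 ± 2.91 in gonads and 59.0 ± 13.1 in liver, a log2 difference of 5.29 ± 0.15 between heart and gonads. VDAC1, a channel of the outer membrane, was 1.01 ± 0.17 higher on the log2 scale in the heart than in the gonads. With library totals in place of TMM factors, 3 of the 12 were higher and 3 lower between heart and gonads (median -0.08 where that of all genes was -1.11), and VDAC1 had a difference of 0.01.

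POLRMT and TFAM, which transcribe the mitochondrial genome, were lower in the heart than in the gonads. POLRMT, the RNA polymerase of mitochondria, was lowest in the heart at 9.87 ± 1.53 CPM, where the gonads held 36.3 ± 7.73 and the liver 23.0 ± 5.16. It was lower in the heart than in the gonads by 1.38 ± 0.15 on the log2 scale and lower than in the liver by 1.43 ± 0.15. TFAM, which packages the genome and starts its transcription, stood at 106 ± 17.3 CPM in the gonads, while the heart held 32.7 ± 15.8 and the liver 21.8 ± 8.55. TFAM was lower in the heart than in the gonads by 1.21 ± 0.24 on the log2 scale, and its difference of 0.36 ± 0.26 between heart and liver did not pass. Of the 9 genes of the transcription list, 1 was higher and 5 were lower in the heart than in the gonads, and 1 was higher and 2 were lower than in the liver. Of all genes, 30.2% were called higher and 30.2% lower against the gonads, and 34.2% higher and 34.0% lower against the liver. With library totals none of the 9 was higher and 8 were lower than in the gonads, and POLRMT differed by -2.45 there. That scaling called 13459 of all 18006 genes, with a median log2 difference of -1.11. Between gonads and liver POLRMT differed by -0.05 ± 0.16 (adjusted p = 0.777 by edgeR's test), but by 1.05 and past the threshold with library totals.

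Of 15 genes of replication and upkeep, 1 was higher and 9 were lower in the heart than in the gonads (none and 14 with library totals), and 2 were higher and 7 lower than in the liver. The shares of all genes were 30.2% higher and 30.2% lower against the gonads, and 34.2% and 34.0% against the liver. With library totals the median of all genes was -1.11 for heart against gonads. POLG, the DNA polymerase of mitochondria, stood at 52.5 ± 5.54 CPM in the gonads, while the heart held 23.3 ± 8.92 and the liver 35.1 ± 9.30. In the fit POLG was lower in the heart than in the gonads by 0.69 ± 0.18 and lower than in the liver by 0.82 ± 0.19 on the log2 scale. Between gonads and liver it differed by -0.14 ± 0.19 (adjusted p = 0.525 by edgeR's test), but by 0.95 and past the threshold with library totals. TOP1MT, a mitochondrial topoisomerase, was found mainly in the liver, at 5.11 ± 1.47 CPM against 0 to 0.228 in the hearts and 0 to 0.331 in the gonads, and the fitted fold of so low a gene depends on the prior count. Of 22 RNA processing genes tested, 10 were higher and 4 lower in the heart than in the gonads, which turned to 2 higher and 15 lower with library totals, and 7 were higher and 8 lower than in the liver. The counts against the liver lay near the shares of all genes called, 34.2% higher and 34.0% lower. LRPPRC, which stabilises mitochondrial mRNAs, stood at 103 ± 15.9 CPM in the gonads, while the heart held 59.6 ± 16.2 and the liver 21.0 ± 4.01. Its log2 difference was 1.28 ± 0.15 between heart and liver and -0.31 ± 0.14 between heart and gonads, the latter not past the threshold. Between heart and gonads it passed with DESeq2 size factors (-0.33), with mitochondrial genes left out of scaling (-0.36) and with library totals (-1.32).

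FASTKD2, an RNA-binding protein of the mitochondrial matrix, was at 27.3 ± 3.95 CPM in the gonads and at 0 to 5.64 in the liver. Of 10 regulators of mitochondrial content, 4 were higher and 3 lower in the heart than in the gonads (3 and 5 with library totals), and 5 were higher and 3 lower than in the liver. The shares of all genes were 30.2% in each direction against the gonads, and 34.2% higher and 34.0% lower against the liver. PPARGC1A, the coactivator that drives mitochondrial biogenesis, stood in the heart at 304 ± 29.1 CPM against 11.2 ± 2.01 in the gonads and 30.9 ± 6.89 in the liver. PPARA, a receptor that controls fatty acid use, was highest in the liver at 92.3 ± 17.4 CPM, against 31.2 ± 5.82 in the gonads.

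Between gonads and liver, where every mitochondrial gene tested within both organs was lower in the gonads, the nuclear lists were mixed. Of the content genes 5 were higher and 6 lower in the gonads, of the transcription genes 4 and 2, of the replication genes 6 and 4, of the RNA processing genes 7 and 10 and of the regulators 4 and 4, against 37.0% of all genes called higher and 36.5% lower. With library totals the counts, in the same order, were 7 and 1, 9 and 0, 11 and 2, 11 and 4, and 6 and 2. That scaling moved the median log2 difference of all genes from 0.02 to 1.11.

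With fetal weight, 2 of the 12 content genes tested rose in the heart and none fell. None was called among the 9 transcription, 14 replication, 22 RNA processing and 10 regulator genes tested there. Over all lists together these calls lie near the share of all genes called higher, so they are no trait of the lists. CYCS, the cytochrome c that carries electrons to complex IV, had a slope of 0.30 ± 0.06 on the log2 scale per 0.1 g and SLC25A5, another ADP/ATP carrier, one of 0.22 ± 0.05, each with an adjusted p of 0.0435 by edgeR's quasi-likelihood test with Benjamini-Hochberg adjustment, against 4.31% of all genes called higher and 1.19% lower. Both calls were lost with library totals, with the transfer group as a covariate, and without fetus 1, 2, 4, 5, 8 or 10, where edgeR called no gene at all in the heart. TFAM had a slope of 0.30 ± 0.09 (adjusted p = 0.0657 in the same test), and CS one of -0.09 ± 0.06. No gene of the transcription, replication or regulator lists was called in the linear fits of the 4 tissues, and of the RNA processing list 1 was lower in the liver, where 0.907% of all genes were. It was PDE12, which trims poly(A) tails of mitochondrial mRNAs, with a slope of -1.08 ± 0.21 (adjusted p = 0.0431 by edgeR's test) and levels of 0.295 to 4.63 CPM, and the call was lost with the transfer group as a covariate and without fetus 3 or 4, where no gene was called in the liver. The heart and liver slopes of PDE12 differed by 1.23 ± 0.21 (adjusted p = 0.000623 by edgeR's test). Heart and liver slopes also differed for MRM3, an rRNA methyltransferase of mitochondria, by -0.36 ± 0.08 and for ESRRB, a nuclear receptor, by 1.75 ± 0.47, the latter at levels under 4 CPM. For this difference 2 of 22 RNA processing genes, 1 of 10 regulators and 1 of 15 replication genes were called, against 7.4% of all genes. None of the 9 transcription or 12 content genes was. With the fetus as a replicate block no gene of the 18006 was called for this difference, so the calls of PDE12, MRM3 and ESRRB were lost. The spline of weight in the gonads called PRIMPOL, a primase-polymerase (4.19 to 34.98 CPM), and DNA2, a nuclease of DNA replication (3.22 to 46.3 CPM), with adjusted p of 0.00108 and 0.00823 by edgeR's test. Both calls were lost with all libraries counted separately and without the library of fetus 6, one of the averaged pair, where the spline called no gene.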

How the data were processed

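The authors trimmed reads with Trimmomatic, checked them with FastQC (0.11.9), mapped them with STAR (2.7.0b) to ARS-UCD1.3 and counted them per Entrez gene with featureCounts (Subread 2.0.3). They deposited 1 table of whole-number counts, not normalized, for 36 libraries. Organ libraries were made with a stranded poly(A) kit and blood libraries with a different stranded kit, both read as 100-base pairs. Options for strand, multi-mapping reads and read pairs are not given in the sources used here, so overlapping genes and nuclear copies of mitochondrial DNA are uncertain. Between 48.7 and 86.9% of the counts from 1 to 50 in a library were even.

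Names and gene order came from a RefSeq table of another assembly (ARS-UCD2.0), which matched 31630 of 35092 identifiers. No coordinates, gene lengths or sequences were used, so levels of different genes are not compared per length. Shares are percent of all counts of a library.

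Counts were tested with edgeR (4.0.16, R 4.3.3) with TMM scaling and quasi-likelihood tests over all genes that reached 10 counts in 8 or more organ samples, or in 4 or more within a tissue, with Benjamini-Hochberg adjustment over all of them. The organ fit was planned on 26 libraries. Because 2 pairs of libraries differed by less than sampling noise at the median gene, it was run on 24 samples. Each pair was given its mean count and mean weight. Weight was fitted as a line and as a natural spline with 3 degrees of freedom. Ratios used counts plus 0.5. The smallest p of the ratio test is set by 7 fetus pairs, since the averaged pairs link fetuses. Alternatives were DESeq2 (1.42.0), other scalings, no filter, a fetus block, leaving out each fetus and, chosen after seeing the data, counting all libraries separately, leaving out the averaged pairs and leaving out fetuses 9 and 10. The scripts were tested on simulated data.

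Organs of 1 fetus are paired by their number. Across 17989 nuclear genes the deviations from the organ mean of same-fetus samples had a median correlation of 0.014 for heart and liver, 0.107 for heart and gonads and 0.034 for gonads and liver.

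Mitochondrial protein and rRNA genes are all named, and tRNAs where they passed the filter. Of the nuclear lists, the text names the 3 called genes with the largest organ difference, up to 3 called genes with the smallest p for weight in each tissue, and TFAM, POLRMT, LRPPRC, POLG, PPARGC1A, CS and VDAC1. The members and lists were chosen with earlier results of these data known. Of the listed names 2 (FASTKD4 and PHB) matched no row under that symbol. From the kidney markers 1 gene is not reported here and was left out of their sums.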

Additional observations from a re-analysis of the deposited data

Results flagged for a closer look

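In groups of 7 to 10 samples, a sample was marked when its gap to the nearest other one exceeded the 95% critical value of Dixon's test. Of 112 groups tested 25 were marked, where chance marks about 1 in 20, and genes of 1 library are not independent. The gonads of fetus 7 stood above the other 7 samples. Their mitochondrial share was 7.23% of counts, with ND1 at 0.466%, ND2 at 0.215%, COX1 at 1.60%, COX2 at 0.388%, COX3 at 1.12%, ND3 at 0.287%, ND4 at 0.419%, ND5 at 0.0626% and CYTB at 1.17%. The same sample had the highest erythroid marker sum (400 CPM against 154 to 290), the highest Sertoli marker sum (24.8 against 9.47 to 18.5) and the lowest kidney marker sum (566 against 605 to 753) of the gonads, and the part of these cells was not tested.

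The maternal blood numbered 5 was high for ND3 (0.0366%), ND5 (0.163%), ND6 (0.0669%) and CYTB (0.354%), and its ND4L/ND4 log2 ratio of -4.04 was low. The maternal blood numbered 2 was low for COX2/COX1 (-2.55). In the gonads of fetus 1, the log2 ratio was -1.57 for COX2/COX1 (high), -5.65 for ND4L/ND4 (low) and 1.33 for COX1/ND1 (low).

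In the heart, fetus 10 was low for KEH36_r01/KEH36_r02 (0.41) and fetus 8 for ND4L/ND4 (-4.02). In the liver, fetus 10 was low for ATP8/ATP6 (-4.70) and ND4L/ND4 (-4.96). The averaged liver sample of fetuses 1 and 2 was high for ND2/ND1 (-1.24) and low for ND6/CYTB (-5.42).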

How the results depend on the processing

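All 17 mitochondrial genes kept their calls between gonads and each other organ under every alternative (19 and 18 genes were called without the filter), and between heart and liver 7 to 10 genes were called. Of the 17, KEH36_t12 passed the filter only with its heart and liver counts. The fit with fetus as replicate block, which pairs the organs, called 7, 17 and 17 genes as without it. It changed no other call of a mitochondrial gene, but over all genes it called none for the 3 slope differences, where the fit without it called 1332, 3 and 879. Linear weight in the heart, with 0 genes called, gave 1 with DESeq2 size factors, 15 with DESeq2's test and 0 to 17 leaving out each fetus. The transfer groups of the heart, with 0, gave 3 with DESeq2 and 0 to 6 leaving out each fetus. The gonad spline, with 1 gene called, gave 0 with all libraries counted separately or DESeq2 size factors, 2 without the filter, 3 with library totals, 11 with DESeq2's test, 16 without the averaged pairs and 0 to 12 leaving out each fetus. The difference of heart and liver slopes, with 0, gave 2 with all libraries counted separately (1592 of all genes) and 0 to 2 leaving out each fetus. The cause of these shifts was not tested.

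Of the gene ratios 27 of 36 passed, 25 to 27 leaving out each fetus, 28 unpaired, and 0 without the averaged pairs. There at most 6 fetus pairs remain, fewer between gonads and liver, and 16 ratios had an unadjusted p under 0.05. With fewer pairs the smallest possible p of the permutation test is larger, so this 0 cannot decide whether the ratios differ. Small differences between heart and liver changed sign. KEH36_t22, at 0.05, became -0.084 with DESeq2 size factors and with DESeq2's test, -0.036 with mitochondrial genes left out of scaling, -0.0726 with library totals, -0.1671 with the replicate block, -0.0407 with 2 organs only and -0.0292 without the averaged pairs, and ran from -0.2632 to 0.2524 leaving out each fetus. KEH36_t12, at -0.09, became 0.0398 with all libraries separate and ran from -0.2885 to 0.1417 leaving out each fetus, and KEH36_r01, at -0.10, ran from -0.3894 to 0.1438. ATP8/ATP6 became 0.0465 without the averaged pairs (0.0030 between gonads and liver) and ran from -0.0801 to 0.0438 leaving out each fetus.

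Over all genes the counts of calls for weight and transfer group shifted most. They ran from 0 to 3863 (linear, 894 in the reported fit) and 0 to 2723 (groups, 7) in the heart, 0 to 535 (spline, 0) in the heart, and 0 to 3889 (spline, 548), 0 to 15 (linear, 0) and 0 to 295 (groups, 2) in the gonads. In the liver they ran from 0 to 1011 (273), 0 to 740 (164) and 1 to 897 (381), and in blood from 2 to 484 (23), 0 to 117 (1) and 0 to 65 (0). The tested mitochondrial genes held at least 1000 counts in every sample, apart from KEH36_t12, which had as few as 1 count in a gonad sample. A null result for weight in 7 to 10 samples does not show that a gene did not change.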
